A study of Mus musculus with 16 samples.

Results

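IL-10, the adenosine receptors and 3 further genes tied to immune suppression were followed in mouse neutrophils during abdominal sepsis. The 6 genes were Il10, Adora2a, Adora2b, Cd274, Nt5e and Entpd1, all found among the 49315 genes of the count files. They were selected on the counts of WT lung neutrophils, in which Il10 and Adora2a were higher 12 hours after CLP (cecal ligation and puncture, a surgery that spills gut bacteria into the abdomen). The WT lung libraries are therefore given below as a description, without a test.

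The cells, positive for Ly6G, CD11b and CD45.2, were sorted from blood or lung of WT mice and of αD KO mice, in which the integrin chain encoded by Itgad is deleted in the germline. The groups were WT blood, WT lung, αD KO blood and αD KO lung, each untreated (0h) and at 12 hours after CLP in male mice of 8 to 12 weeks. Each of the 8 groups had 3 count files under 2 samples. Sample 1 held 2 files, named 1a and 1b here, and sample 2 held 1, named 2. All 3 were treated as libraries of their group, so that n = 3 counts libraries of 2 samples. Files 1a and 1b differed far beyond counting noise (chi-square 63.5 to 328.5 times its degrees of freedom), as repeat preparations of 1 sample also can. The labels do not tell whether the 3 libraries came from separate animals, so the p-values measure the spread between these libraries, which may be technical, and they are too small if 1a and 1b share a source. The fits were therefore also made with the files of sample 1 summed, which leaves 2 samples a group.

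Total counts ranged from 5753476 to 29984954 per library. Levels are given as CPM, in which the counts are scaled by TMM over all 24 libraries, and 3 counts corresponded to 0.107 to 0.342 CPM. Library 1b had the lowest total of the 3 in every group (5753476 to 17976890 counts) and the most genes with counts (29162 to 38844, against 17132 to 32666 in 1a and 2), and the part of this in the values of 1b below was not tested. The 8 genes of the neutrophil marker list summed to 36631 to 175956 CPM in every group and all had counts. In bulk samples, fewer cells of a type and less RNA per cell cannot be told apart.

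Several libraries went against their labels. The αD KO label came with 12.6 to 96.1 CPM of Itgad and the WT label with 0.0522 to 4.08 CPM (12 libraries each), so the targeted gene was higher where it should be absent. Whether this RNA is that of the disrupted allele cannot be read from counts per gene. Whether the genotype labels are crossed cannot be told either, and in that case every difference between the genotypes below would change sign. The label is used as given. In αD KO lung, library 2 of 0h and libraries 1a and 2 of 12 hours also stood apart from the time on their label. Csf1r, the receptor for the macrophage growth factor, was 351 to 812 CPM in the other 11 libraries labelled 0h and 90.2 to 202 CPM in the 9 libraries of the other 12-hour groups, but 179 CPM in that 0h library and 539 and 610.1 CPM in those 12-hour libraries. The remaining 12-hour library of αD KO lung, 1b, had 338 CPM, also above the other 12-hour groups. Chil3, a secreted chitinase-like protein of macrophages and neutrophils, was 10122 CPM in that 0h library and 604 and 732 CPM in those 12-hour libraries, against 4773 CPM in 1b and 4108 to 40957 CPM in the other 12-hour groups. Whether files of αD KO lung were exchanged between the times cannot be told from these counts, and its differences between the times would then change. Results from αD KO lung rest on these libraries, and values without them are also given. Without all 3, libraries 1a and 1b of 0h are set against library 1b of 12 hours alone. Leaving libraries out for their likeness to the other time favours a difference between the times, so those values are a description, without a p.

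IL-10 is a secreted cytokine that limits inflammation, and myeloid cells are among its sources. Extracellular ATP is cut by CD39, the product of Entpd1, and then by CD73, the product of Nt5e, to adenosine. The receptors encoded by Adora2a and Adora2b couple adenosine to cAMP, which dampens neutrophil activation, and Adora2b has the lower affinity. Cd274 encodes PD-L1, the ligand of the T cell inhibitory receptor PD-1.

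The RefSeq promoter table on GRCm38.p6 matched 4 of the 6 genes, Adora2b, Cd274, Nt5e and Entpd1. The 250 bases before the start site are shown for Adora2b, which followed Il10 and Adora2a across the libraries, for Cd274, which was high in the libraries with the most Il10, and for Entpd1, the gene that was lower in WT blood at 12 hours. All lie on the + strand at chr11:62248734-62248983, chr19:29367188-29367437 and chr19:40612116-40612365. Capitals mark TGACG or its reverse complement, the half-site of the cAMP response element.
Adora2b: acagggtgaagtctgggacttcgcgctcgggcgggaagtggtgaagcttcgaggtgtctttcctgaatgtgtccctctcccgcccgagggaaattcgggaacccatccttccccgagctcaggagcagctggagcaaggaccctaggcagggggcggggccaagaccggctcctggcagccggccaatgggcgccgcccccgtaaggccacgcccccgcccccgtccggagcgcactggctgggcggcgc
Cd274: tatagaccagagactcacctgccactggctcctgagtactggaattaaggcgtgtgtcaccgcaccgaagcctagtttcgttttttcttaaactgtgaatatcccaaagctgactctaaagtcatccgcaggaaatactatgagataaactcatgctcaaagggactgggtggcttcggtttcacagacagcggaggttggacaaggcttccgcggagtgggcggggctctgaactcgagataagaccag
Entpd1: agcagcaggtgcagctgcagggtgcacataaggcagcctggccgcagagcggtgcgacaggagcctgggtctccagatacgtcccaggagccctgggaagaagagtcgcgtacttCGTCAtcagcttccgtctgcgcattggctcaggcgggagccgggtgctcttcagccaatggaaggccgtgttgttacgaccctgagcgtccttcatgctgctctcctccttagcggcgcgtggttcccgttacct
The half-site was found once before the Entpd1 start, once before a further Entpd1 start inside the gene, and in 17.9% of all 32536 promoters of the table. On either strand, TGANTCA (AP-1), TTCNNNGAA (STAT) and ACGTG (1 form of the hypoxia response core) were in none of the 3 windows, and in 6.73%, 7.04% and 16.7% of all promoters. The other form of that core, GCGTG, can be read in all 3 windows on 1 strand or the other, and its share of all promoters was not counted. TGACG and ACGTG can share letters, and no window held both. A missing match says only that these letters are not in the window. Il10 and Adora2a were not matched.

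The 6 genes lie on 5 chromosomes (GRCm38). Il10 is at chr1:131019845-131024974, Adora2a at chr10:75316943-75334788, Adora2b at chr11:62248984-62266453 and Cd274 at chr19:29367455-29388095. Nt5e is at chr9:88327197-88372092 and Entpd1 at chr19:40612366-40741602, and all 6 are on the + strand.

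The 6 genes differed widely in level. Per kb of exon, Entpd1 had the highest median over the 24 libraries at 78.8 CPM per kb, followed by Cd274 at 24.2 CPM per kb. The median was 1.98 CPM per kb for Nt5e and 1.21 CPM per kb for Adora2b. It was lowest for Il10 (0.707) and Adora2a (0.416 CPM per kb), and these neighbours overlapped across libraries. The plot of levels by library gives every value.

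**Figure D1:**
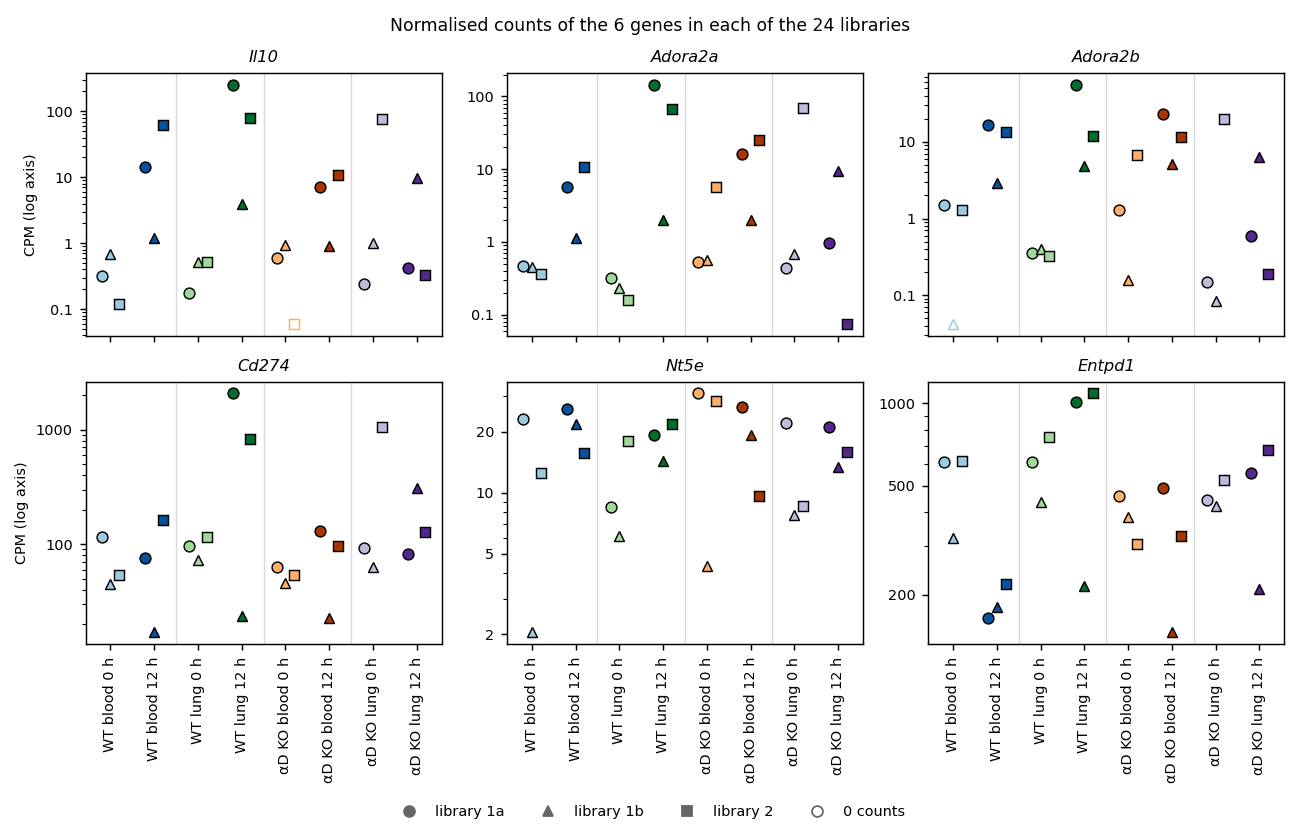
CPM (log axis) of each gene in each library, by genotype, tissue and time. Circles, triangles and squares are libraries 1a, 1b and 2, and open symbols at the lower edge had 0 counts. Il10, Adora2a and Adora2b span over 3 orders of the log axis or close to it, while Nt5e and Entpd1 stay within narrower bands. For the first 3 genes, library 2 of αD KO lung 0h is near library 2 of WT lung at 12 hours and far above library 1b of that group for Il10 and Adora2a.

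Il10 was at most 1.01 CPM in 11 of the 12 libraries labelled 0h, the exception being αD KO lung library 2, and reached its highest level in WT lung after CLP. In WT lung it was 0.179, 0.517 and 0.524 CPM at 0h (libraries 1a, 1b and 2) and 249, 3.94 and 79.0 CPM at 12 hours. All 3 libraries at 12 hours were above all at 0h, and library 1b was far below the other two. The fitted log2 difference between 12 hours and 0h was 8.08 (SE 1.44), a description because these libraries chose the gene. Summed marker lists also moved between these times in WT lung, without overlap. The B cell list went from 448 to 724 down to 29.9 to 77.9 CPM, the dendritic cell list from 106 to 117 down to 14.2 to 44.2 CPM, the eosinophil, basophil and mast cell list from 65.8 to 119 down to 3.36 to 25.5 CPM and the T and NK cell list from 17.4 to 23.1 down to 10.8 to 17.3 CPM. At 0h most of the B cell sum was Ighm, the heavy chain of IgM (399 to 679 and then 24.9 to 72.0 CPM). Most of the dendritic cell sum was Itgax, the integrin chain CD11c (90.8 to 108 and then 8.36 to 41.6 CPM). Most of the eosinophil, basophil and mast cell sum was Siglecf (56.9 to 107 and then 1.71 to 17.8 CPM), which is also in the monocyte and macrophage list. The monocyte and macrophage list went from 946 to 1492 up to 5938 to 8950 CPM, of which Chil3 made up 78.0% to 92.7% at 12 hours, while its other 11 genes summed to 868 to 1339 CPM and then 651 to 1305 CPM. Within it Csf1r was 495 to 715 and then 186 to 202 CPM, and Adgre1, a macrophage surface protein, was 91.8 to 217 and then 32.3 to 54.2 CPM. The neutrophil list went from 41595 to 49976 up to 65123 to 169255 CPM. Most of it at 12 hours was S100a8 (12447 to 14683 and then 25241 to 82216 CPM) and S100a9 (12574 to 12738 and then 26757 to 60103 CPM). Csf3r of the same list, the receptor for the neutrophil growth factor, went down from 7649 to 10844 to 1889 to 3392 CPM. The part of these shifts in the values of the 6 genes in WT lung was not tested.

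In WT blood Il10 was 0.322, 0.683 and 0.120 CPM at 0h and 14.1, 1.20 and 61.1 CPM at 12 hours. The groups did not overlap, and 1b was again the lowest library at 12 hours. Il10 rose by a log2 fold change of 6.22 (SE 1.42, edgeR adjusted p = 0.0277). The 0h value rests on 18 counts in the whole group.

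αD KO blood had Il10 levels of 0.603, 0.953 and 0 CPM at 0h and 7.21, 0.899 and 10.9 CPM at 12 hours. Libraries 1a and 2 at 12 hours were above every library at 0h, but 1b lay among them. The difference was 3.57 on the log2 scale (SE 1.34) and did not pass the test (edgeR adjusted p = 0.13). The 0 in library 2 allows up to 0.108 CPM, the level of 3 counts, which covers counting error only.

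In αD KO lung Il10 was 0.244, 1.01 and 77.4 CPM at 0h and 0.428, 9.74 and 0.335 CPM at 12 hours. Library 2 at 0h was at the level of WT lung library 2 at 12 hours, and the highest 12-hour library was 1b, unlike in the other 3 groups. The fitted difference was -2.92 (SE 2.05, edgeR adjusted p = 1.0). It turned to 2.44 without 0h library 2, went to -6.11 without 12-hour library 1b, was 3.93 without the 3 libraries that go against their label and was -0.07 with the library number as a replicate block.

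Adora2a, the high-affinity receptor of the pair, was also highest in WT lung after CLP. In WT lung it was 0.323, 0.230 and 0.161 CPM at 0h and 143, 1.97 and 67.5 CPM at 12 hours, a log2 difference of 8.13 (SE 1.43), again a description. In WT blood it was 0.466, 0.455 and 0.359 CPM at 0h and 5.69, 1.14 and 10.8 CPM at 12 hours. These WT blood groups did not overlap, and Adora2a rose by 3.71 on the log2 scale (SE 0.87, edgeR adjusted p = 0.0305).

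Adora2a in αD KO blood was 0.523, 0.556 and 5.66 CPM at 0h and 16.0, 1.98 and 25.5 CPM at 12 hours. The groups overlapped because 0h library 2 was above 12-hour library 1b. The log2 difference was 2.64 (SE 1.12) and did not pass the test (edgeR adjusted p = 0.171). That 0h library also had the most lymphocyte RNA of its group, with the T and NK cell list at 342 CPM against 17.6 and 29.3 CPM, and Cd79a, a chain of the B cell receptor, at 136 against 8.69 and 7.07 CPM. Other cells were highest there as well. Ccr2, a chemokine receptor of monocytes, was 286 against 38.3 and 3.02 CPM, and the monocyte and macrophage list 4316 against 2566 and 886 CPM. The platelet list was 624 against 533 and 26.5 CPM, and the erythroid list 8815 against 1731 and 7357 CPM. The part of these cells in the Adora2a value was not tested. Without this library the Adora2a difference was 4.78 (edgeR adjusted p = 0.0598).

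Adora2a in αD KO lung was 0.438, 0.673 and 70.2 CPM at 0h and 0.962, 9.40 and 0.0746 CPM at 12 hours. The library pattern was that of Il10, with library 2 highest at 0h and 1b highest at 12 hours. The difference of -2.79 (SE 2.04, edgeR adjusted p = 1.0) turned to 2.55 without 0h library 2 and to 0.38 with the replicate block, went to -5.60 without 12-hour library 1b, and was 3.97 without the 3 libraries that go against their label.

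Adora2b, the low-affinity receptor, was 0.359, 0.402 and 0.323 CPM in WT lung at 0h and 55.2, 4.82 and 12.0 CPM at 12 hours. In WT blood it was 1.5, 0 and 1.28 CPM at 0h and 16.5, 2.94 and 13.6 CPM at 12 hours, and the 0 allows up to 0.342 CPM. The WT blood groups did not overlap, but the log2 difference of 3.40 (SE 1.07) did not pass the test (edgeR adjusted p = 0.076). The αD KO blood libraries had 1.29, 0.159 and 6.78 CPM at 0h and 23.2, 5.13 and 11.5 CPM at 12 hours, a difference of 2.25 (SE 1.05, edgeR adjusted p = 0.208). The 0h library 2, rich in RNA of lymphocytes and other cells, was again the highest of its group, and without it the difference was 4.13. In αD KO lung the values were 0.146, 0.0842 and 20.2 CPM at 0h and 0.588, 6.33 and 0.186 CPM at 12 hours, and the difference of -1.54 (SE 1.92) turned to 4.11 without 0h library 2, to 5.48 without the 3 libraries that go against their label and to 1.19 with the replicate block. It went to -4.18 without 12-hour library 1b and to -2.46 without 0h library 1a.

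The balance of the receptors differed between libraries. In the 20 libraries with at least 3 counts of both genes, the median ratio of Adora2a to Adora2b per kb was 0.541 (0.205 to 4.11), and Adora2a was the higher in 7 of them. All 3 libraries of WT blood at 12 hours had more Adora2b per kb. Adora2a was the higher in the libraries with the largest Adora2a levels, at 56.4 against 29.9 CPM per kb in WT lung 12 hours 1a, 26.7 against 6.48 in WT lung 12 hours 2 and 27.7 against 11.0 CPM per kb in αD KO lung 0h 2.

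Cd274, the PD-L1 gene, was well above the floor in every library. In WT lung it was 97.1, 73.2 and 116 CPM at 0h and 2070, 23.7 and 837 CPM at 12 hours, so that library 1b was below all 0h libraries while 1a and 2 were far above them. The fitted log2 difference was 3.32 (SE 1.17), a description, and 2.05 without 12-hour library 1a. In WT blood the values were 116, 44.9 and 53.9 CPM at 0h and 76.5, 17.1 and 162 CPM at 12 hours. The blood groups overlapped, and the difference was 0.19 (SE 0.73, edgeR adjusted p = 0.885). It ran from -0.62 without 12-hour library 2 to 0.82 without 0h library 1a and was -0.08 without 0h library 1b. For αD KO blood the values were 63.1, 46.0 and 54.0 CPM at 0h and 130.1, 22.7 and 96.8 CPM at 12 hours, with a difference of 0.57 (SE 0.54, edgeR adjusted p = 0.531). Library 1b was the lowest of the 3 at 12 hours in each of these groups, and without it in αD KO blood the difference was 1.07 and passed the test (edgeR adjusted p = 0.0461), while without 12-hour library 1a it was 0.15.

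Cd274 in αD KO lung was 93.0, 63.7 and 1057 CPM at 0h and 82.3, 309 and 127 CPM at 12 hours. The value of 1057 CPM was above WT lung library 2 at 12 hours, and the other 5 libraries were between 63.7 and 309 CPM. The difference of -1.23 (SE 1.09, edgeR adjusted p = 1.0) turned to 1.14 without 0h library 2 and to 1.83 without the 3 libraries that go against their label, and was -0.24 with the replicate block. It went to -1.95 without 12-hour library 1b and to -1.93 without 0h library 1a. High Cd274 thus stood in the 3 libraries that also had over 70 CPM of Il10. In the annotation 511 exonic bases of Cd274 are shared with an antisense gene, AC119228.1, and the strand of counting is not stated.

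**Figure D2:**
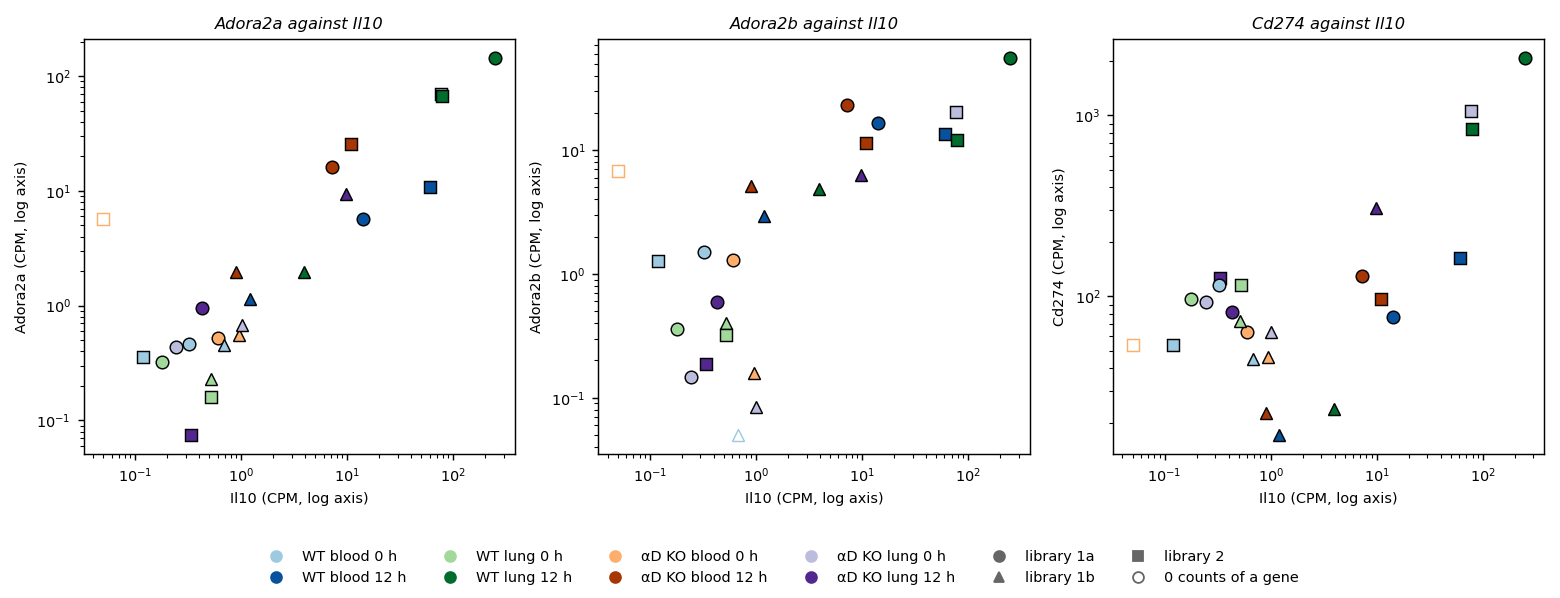
CPM of Adora2a, Adora2b and Cd274 against CPM of Il10 in the 24 libraries (log axes). Colours are groups, shapes are libraries 1a, 1b and 2, and open symbols had 0 counts of a gene and are drawn at 0.05 CPM. The receptors spread along the diagonal, with αD KO lung 0h library 2 beside WT lung 12 hours library 2, whereas Cd274 is high only in the 3 libraries with the most Il10 and intermediate in αD KO lung 12 hours 1b (309 CPM).

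Entpd1, the CD39 gene, was among the more abundant transcripts. In WT blood it was 608, 321 and 616 CPM at 0h and 164, 181 and 219 CPM at 12 hours, without overlap. Entpd1 fell by 1.51 on the log2 scale (SE 0.38, edgeR adjusted p = 0.037). The values in αD KO blood were 457, 383 and 306 CPM at 0h and 489, 146 and 327 CPM at 12 hours, and only 1b was below the 0h libraries. The difference there was -0.31 (SE 0.43, edgeR adjusted p = 0.678), and it turned to 0.10 without 12-hour library 1b, was -0.08 without 0h library 1a and was -0.70 without 12-hour library 1a.

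In WT lung Entpd1 was 609, 437 and 753 CPM at 0h and 1013, 215 and 1084 CPM at 12 hours, a log2 difference of 0.33 (SE 0.58) as a description, which was -0.03 without 12-hour library 1a and -0.15 without 12-hour library 2. Libraries 1a and 2 at 12 hours were above all at 0h, and 1b was below them. The αD KO lung values were 443, 421 and 522 CPM at 0h and 554, 209 and 674 CPM at 12 hours, with a difference of 0.06 (SE 0.47, edgeR adjusted p = 1.0). Unlike Il10, Entpd1 in αD KO lung 0h library 2 was close to the other 0h libraries.

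Nt5e, which encodes the next enzyme on the path to adenosine, stayed between 2.05 and 31.0 CPM. In WT blood it was 23.3, 2.05 and 12.5 CPM at 0h and 25.9, 21.9 and 15.8 CPM at 12 hours. The groups overlapped, with a log2 difference of 0.67 (SE 0.70, edgeR adjusted p = 0.566), which was 1.38 without 0h library 1a and 0.17 without 0h library 1b. In αD KO blood the difference was -0.21 (SE 0.66, edgeR adjusted p = 0.867), and its sign changed with the library left out (-0.67 without 0h library 1b to 0.19 without 0h library 1a). In αD KO lung it was 0.44 (SE 0.47, edgeR adjusted p = 1.0), from 0.17 without 12-hour library 1a to 0.99 without 0h library 1a. In WT lung the libraries were 8.50, 6.09 and 18.1 CPM at 0h and 19.4, 14.4 and 21.8 CPM at 12 hours, which overlapped. Per kb, Entpd1 was above Nt5e in 24 of 24 libraries, by a median of 46.3 (9.72 to 241).

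**Figure D3:**
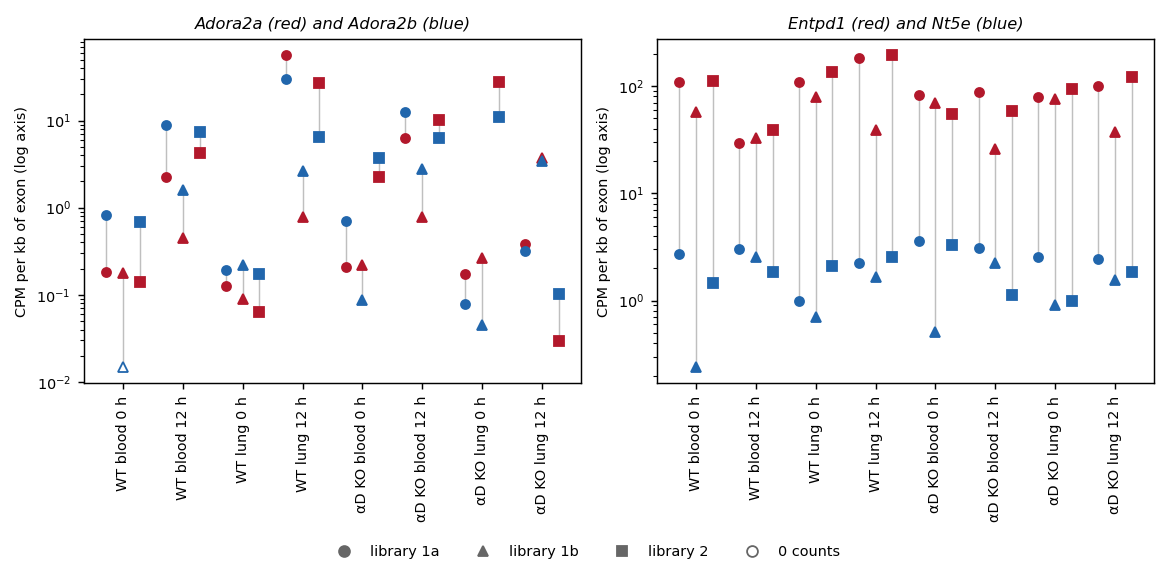
CPM per kb of exon (log axis) for both pairs of genes in each library, joined by a line: the adenosine receptors and the enzymes that make adenosine. Shapes are libraries 1a, 1b and 2, and open symbols had 0 counts. Entpd1 is above Nt5e in all 24 libraries, whereas the order of Adora2a and Adora2b changes between libraries.

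Of the 6 genes, 3 were called in WT blood between 12 hours and 0h, Il10 and Adora2a higher and Entpd1 lower, where a call needs an edgeR adjusted p under 0.05 and a log2 fold change beyond 1 in either direction. Over all 14625 genes tested the same rule called 13.5%. In 4 of the 6 (Il10, Adora2a, Adora2b and Entpd1) the groups did not overlap, against 38.0% of all genes tested. With the library number as a replicate block 4 genes were called, these 4, and with the files of sample 1 summed the same 4. That sum gives 1b less weight than 1a, whose total was larger at 0h (29433699 against 5753476) and at 12 hours (26047974 against 17976890). The part of this in the calls was not tested. The count was 0 without WT blood 0h library 1a, 0h library 2, 12-hour library 1a or 12-hour library 2, each of which leaves 5 libraries, and 4 without 0h library 1b. It was also 0 with all 8 groups in the fit, where the edgeR adjusted p was 0.0858 for Il10, 0.276 for Adora2a and 0.284 for Entpd1. Il10 stayed between 4.55 and 7.26 on the log2 scale over the 13 alternatives, with adjusted p from 2.94e-14 to 0.232.

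Markers of other cells moved with the same contrast. From 0h to 12 hours in WT blood the summed level of the B cell list (6 of 6 genes with counts) went from 331 to 1185 CPM down to 43.9 to 198 CPM. Most of it was Ighm, the heavy chain of IgM, at 304 to 1170 and then 31.1 to 142 CPM, while Cd79a overlapped at 5.69 to 18.9 and 5.83 to 22.4 CPM. The dendritic cell list (6 of 6) went from 76.8 to 99.4 down to 6.42 to 10.5 CPM, most of it at 0h from Itgax, the integrin chain CD11c (53.6 to 81.7 and then 2.43 to 4.85 CPM). The T and NK cell list (8 of 8) went from 24.6 to 29.6 down to 15.0 to 15.8 CPM. The monocyte and macrophage list (12 of 12) went from 715 to 2306 up to 17422 to 42008 CPM, of which Chil3 made up 95.0% to 97.5% at 12 hours. Its other 11 genes summed to 706 to 1542 CPM at 0h and 657 to 1055 CPM at 12 hours, and they did not move together. Csf1r went from 383 to 812 down to 90.2 to 189 CPM and Siglecf, a lectin of eosinophils and alveolar macrophages, from 32.3 to 63.1 down to 4.91 to 6.45 CPM, while Ly6c2, a surface protein of monocytes, went from 62.6 to 134 up to 477 to 749.9 CPM. Marco, an alveolar macrophage receptor, was 0 to 0.569 CPM at 0h and 0.0608 to 2.66 CPM at 12 hours. The platelet list (5 of 5) went from 48.6 to 126 down to 4.62 to 26.4 CPM, the eosinophil, basophil and mast cell list from 56.7 to 67.2 down to 5.22 to 8.07 CPM with 1 of its 8 genes at 0 at 12 hours, and the lung structural list (12 of 12) from 21.9 to 266 down to 15.9 to 19.6 CPM. Siglecf, also counted in the monocyte and macrophage list, made up most of the eosinophil, basophil and mast cell sum. The erythroid list (5 of 5) overlapped at 249.9 to 3664 and 340.3 to 2138 CPM. The neutrophil list (8 of 8) went from 36631 to 45844 up to 116152 to 175956 CPM. Most of it at 12 hours was S100a8 (11208 to 14003 and then 46229 to 87596 CPM) and S100a9 (9335 to 13080 and then 44427 to 66584 CPM). Csf3r of the same list went down from 5490 to 10776 to 1107 to 2276 CPM. The part of these cells in the Il10, Adora2a and Entpd1 values was not tested.

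In αD KO blood 0 of the 6 genes were called by edgeR, 2 had an unadjusted p under 0.05 and DESeq2 called 2 (Il10 and Adora2a). The rule called 8.75% of the 14156 genes tested. All 6 genes overlapped between the times, while 33.3% of all genes tested did not. Marker lists moved here too, without overlap. The B cell list went from 355 to 1226 down to 37.2 to 115 CPM, the dendritic cell list from 160.4 to 194 down to 3.69 to 23.0 CPM, the T and NK cell list from 17.6 to 342 down to 9.89 to 16.4 CPM, and the eosinophil, basophil and mast cell list from 44.8 to 63.3 down to 1.77 to 4.68 CPM with 3 of its 8 genes at 0 at 12 hours. Most of the B cell sum was Ighm (328 to 848 and then 29.9 to 92.3 CPM), while Cd79a overlapped (7.07 to 136 and 4.73 to 9.54 CPM). Itgax in the dendritic cell list was 68.8 to 178 and then 1.08 to 16.4 CPM. Most of the eosinophil, basophil and mast cell sum was Siglecf (30.4 to 53.1 and then 1.34 to 3.33 CPM). The neutrophil list went from 39357 to 55765 up to 97886 to 143089 CPM. Most of it at 12 hours was S100a8 (11899 to 20699 and then 44418 to 81136 CPM) and S100a9 (12813 to 18424 and then 36921 to 42235 CPM). Csf3r of the same list went down from 5243 to 9892 to 890.4 to 1794 CPM. The monocyte and macrophage list went from 886 to 4316 up to 4847 to 17506 CPM. Chil3 made up 84.8% to 96.9% of this list at 12 hours, and its other 11 genes summed to 866 to 1749 and then 545 to 739 CPM. The platelet, erythroid and lung structural lists overlapped. The part of these cells in the values of αD KO blood was not tested.

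**Figure D4:**
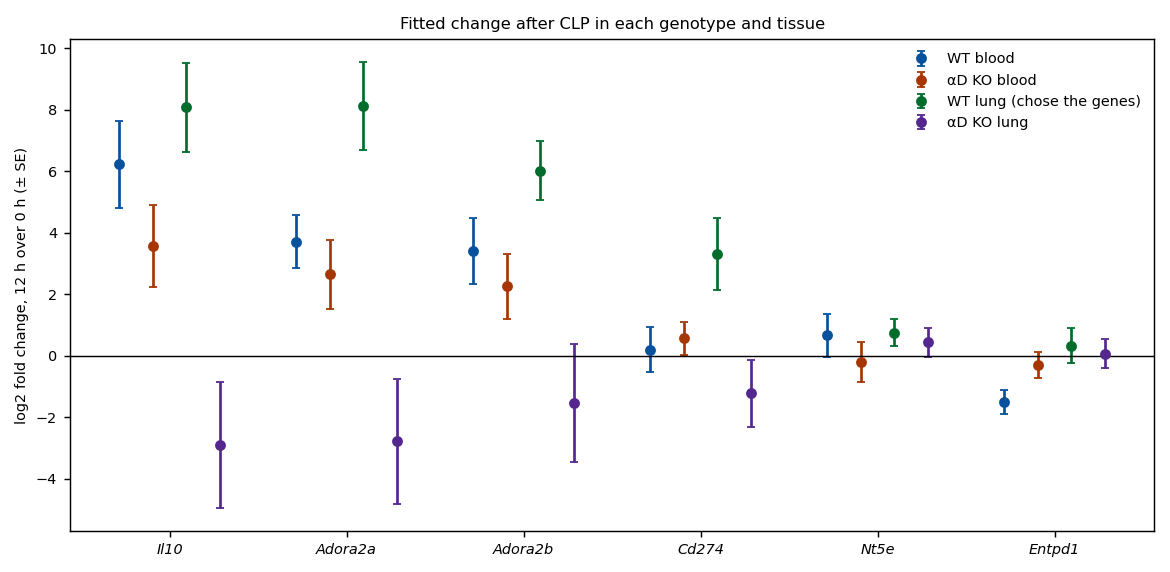
Fitted log2 fold change between 12 hours and 0h (points) with its standard error (bars) for each gene in WT blood, αD KO blood, WT lung and αD KO lung. WT lung chose the genes and is a description. The receptors and Il10 are positive in the first 3 and negative in αD KO lung, where the sign turns without 0h library 2.

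Whether the change differed between the genotypes was tested as an interaction in blood. The interaction (αD KO minus WT) was -2.47 for Il10 (SE 1.87), -0.99 for Adora2a (SE 1.48) and 1.38 for Entpd1 (SE 0.73), each with an edgeR adjusted p of 1.0. The Adora2a term turned to 1.12 without αD KO blood 0h library 2, the Il10 term was -0.80 without WT blood 12-hour library 2, and the Entpd1 term was 0.80 without αD KO blood 12-hour library 1a. When each other library was left out the Adora2a term ran from -1.85 (without αD KO blood 12-hour library 2) to -0.34 (without WT blood 12-hour library 2). None of the 6 genes was called by edgeR or DESeq2 and 0 had an unadjusted p under 0.05, while the rule called 0.0% of 19792 genes. The calls in WT blood and their absence in αD KO blood thus do not show a difference between the genotypes. A missed threshold does not show that the genotypes changed alike.

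At 12 hours in blood, the libraries labelled αD KO had 6.35 ± 5.07 CPM of Il10 and those labelled WT had 25.4 ± 31.5 CPM (SD, n = 3), a log2 difference of -1.94 (SE 1.20, edgeR adjusted p = 0.962). Without WT library 2 it was -0.21. Adora2a went the other way, with 14.5 ± 11.8 CPM for αD KO and 5.89 ± 4.84 CPM for WT (SD, n = 3), a difference of 1.36 (SE 0.92, edgeR adjusted p = 0.962), which was 0.66 without αD KO library 2, 0.87 without WT library 1b and 2.14 without WT library 2. Entpd1 was 321 ± 172 and 188 ± 28.1 CPM (SD, n = 3), a difference of 0.82 (SE 0.41, edgeR adjusted p = 0.962), which was 0.38 without αD KO library 1a. All 6 genes overlapped between the genotypes, while 9.76% of all genes tested did not, 0 were called by edgeR or DESeq2 and 0 had an unadjusted p under 0.05. The rule called 0.0% of 12596 genes at this time.

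At 0h in blood the genes also did not pass the test between the genotypes, with 0 called by edgeR or DESeq2, 0 with an unadjusted p under 0.05 and 0.0115% of 17356 genes called. Adora2a was the 1 of the 6 genes that did not overlap, with 0.523 to 5.66 CPM for the αD KO label and 0.359 to 0.466 CPM for the WT label, and 3.35% of all genes tested did not overlap. Its log2 difference was 2.37 (SE 1.19, edgeR adjusted p = 1.0) and 0.45 without αD KO library 2, the library rich in RNA of lymphocytes and other cells.

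In lung the genotypes are described without a test, since the WT libraries chose the genes. At 12 hours the fitted log2 difference between αD KO and WT was -5.03 for Il10 (SE 1.73), -4.38 for Adora2a (SE 1.73), -3.39 for Adora2b (SE 1.36) and -2.46 for Cd274 (SE 1.24). All 4 overlapped, because WT library 1b was below αD KO library 1b. Without αD KO libraries 1a and 2 they were -3.57, -2.98, -1.98 and -1.73. Without αD KO library 1b the first 3 were -8.16, -7.12 and -5.97, and without WT library 1a Adora2b was -2.04 and Cd274 -1.49. At 0h Il10 was 5.96 (SE 2.07) and Cd274 2.04 (SE 1.03), in the opposite direction, and they were 0.54 and -0.31 without αD KO lung 0h library 2. Adora2a and Adora2b did not pass the filter on low counts in this contrast and have no fitted value. Adora2a was 0.438 to 70.2 CPM in αD KO and 0.161 to 0.323 CPM in WT, each αD KO library above each WT library, and Adora2b was 0.0842 to 20.2 and 0.323 to 0.402 CPM. Nt5e and Entpd1 were between -0.56 and 0.22 in both contrasts, but Entpd1 at 12 hours was -1.94 and Nt5e -0.5 without αD KO libraries 1a and 2. With single libraries left out, Nt5e at 0h ran from -0.41 (without αD KO library 1a) to 0.87 (without WT library 2). Entpd1 at 12 hours ran from -1.02 (without WT library 1b) to -0.27 (without WT library 2 or αD KO library 1b).

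Between 12 hours and 0h in αD KO lung, 0 of the 6 genes were called by edgeR and 0 had an unadjusted p under 0.05, while 0.0% of 17939 genes were called and 72 of them had an unadjusted p under 0.05. DESeq2 gave an adjusted p for Nt5e and Entpd1 only and called neither. All 6 genes overlapped between the times, while 3.53% of all genes tested did not. Over the 13 alternatives the log2 difference was between -0.33 and 0.99 for Nt5e and between -1.18 and 0.49 for Entpd1, in both cases lowest without the 3 libraries that go against their label. Library 2 labelled 0h also had the lowest Itgad of its group at 16.3 CPM, a level near the 12.6 to 18.2 CPM of αD KO blood at 12 hours. Libraries 1a and 2 labelled 12 hours had 80.1 and 96.1 CPM, near the 49.3 to 92.2 CPM of αD KO blood at 0h. Ighm was 44.9 CPM in that 0h library and 467 and 461 CPM in those 12-hour libraries, and Cd79a was 4.31 against 10.8 and 8.13 CPM.

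Lung and blood were compared within αD KO, where the libraries did not choose the genes. At 12 hours Adora2b was 2.37 ± 3.43 CPM in lung and 13.3 ± 9.18 CPM in blood (SD, n = 3) with overlap, a log2 difference of -2.53 (SE 1.15, edgeR adjusted p = 0.236). All 6 genes overlapped, while 27.8% of all genes tested did not. Of the 6, 0 were called by edgeR or DESeq2 and 0 had an unadjusted p under 0.05, and edgeR called 0.0548% of 14592 genes. Without lung library 1b, 3 were called, all lower in lung, Il10 at -4.09, Adora2a at -4.91 and Adora2b at -5.17. The remaining lung libraries, 1a and 2, are those that resembled 0h. Library 1b alone against the 3 blood libraries gave 0.24 for Il10, -1.0 for Adora2a and -1.44 for Adora2b, a description without a test. At this time the lung structural list was 71.8 to 206 CPM in lung and 9.17 to 23.2 CPM in blood. The eosinophil, basophil and mast cell list was 15.0 to 85.3 and 1.77 to 4.68 CPM, and the other marker lists overlapped. The part of these cells was not tested.

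At 0h Cd274 was higher in every lung library than in every blood library, at 63.7 to 1057 against 46.0 to 63.1 CPM. It was the 1 of the 6 genes without overlap, and 7.15% of all genes tested did not overlap. Its log2 difference was 2.91 (SE 1.08, edgeR adjusted p = 1.0) and 0.61 without lung 0h library 2. Of the 6 genes, 0 were called by edgeR, 2 (Il10 and Cd274) had an unadjusted p under 0.05, and 0.0% of 19000 genes were called. DESeq2 gave no adjusted p for Il10, Adora2a and Cd274 and called none of the other 3. Between lung and blood of αD KO at 0h, the lung structural list was 164 to 970.3 against 21.4 to 36.3 CPM. The platelet list was 7.7 to 19.1 against 26.5 to 624 CPM, and the other marker lists overlapped. The part of these cells in the Cd274 and Il10 values was not tested. In WT, as a description, the lung minus blood difference at 12 hours was 2.06 for Il10 (SE 1.41), 3.54 for Adora2a (SE 1.25), 1.10 for Adora2b (SE 0.86), 3.47 for Cd274 (SE 1.32) and 2.00 for Entpd1 (SE 0.54). Without WT lung library 1a Il10 was 0.68, Cd274 2.31 and Adora2b -0.37, and without WT blood library 2 Il10 was 3.79. Adora2b was 1.71 without WT blood library 1a. Between these WT groups the lung structural list was 103 to 444 CPM in lung and 15.9 to 19.6 CPM in blood. The dendritic cell list was 14.2 to 44.2 and 6.42 to 10.5 CPM. The monocyte and macrophage list, mostly Chil3, was lower in lung at 5938 to 8950 against 17422 to 42008 CPM, and the other lists overlapped. The part of these cells in the WT differences was not tested.

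The genes with the pattern most like Il10 were ranked by Pearson's r of log2 CPM over the 24 libraries, among 13919 genes with a mean of at least 1 CPM. The 5 highest were Csf3, the growth factor of neutrophils (r = 0.94), Plagl2 (0.923), Hivep1 (0.921), Tnip1, an inhibitor of NF-κB signalling (0.919), and Ralgds (0.913). Csf3 ranged from 0.0794 to 388 CPM. For Adora2a they were Dock10 (r = 0.952), Mllt6 (0.937), Smpdl3b (0.933), Osgin2 (0.927) and Plagl2 (0.917). Without the 8 libraries 1b, Csf3 had r = 0.967 with Il10 and Dock10 0.979 with Adora2a over 16 libraries. The points share time, tissue and sequencing depth and include the WT lung libraries that chose the genes, so r describes these libraries only.

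Among the 6 genes, Adora2a ranked 129 for likeness to Il10 (r = 0.845) and Adora2b ranked 98 for likeness to Adora2a (r = 0.867). Over the 18 libraries without WT lung r was 0.76 and 0.84. Cd274 ranked 1031 for Il10 (r = 0.689, rho = 0.407, and r = 0.591 without WT lung). Nt5e (0.056) and Entpd1 (0.03) had r near 0 with Il10, and -0.123 and -0.332 without WT lung.

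Other genes of the same pathways were followed in blood, where 12 hours was compared with 0h in both genotypes with separate control libraries. Each list's count stands beside the 13.5% of all genes tested that were called in WT and the 8.75% in αD KO, in either direction. Of 15 genes of the IL-10 receptor and signalling list, 0 were called in WT, where DESeq2 called 3 and 4 had an unadjusted p under 0.05. In αD KO 1 was called, Il4ra, the IL-4 receptor chain that IL-10 can raise, from 249.7 to 303 CPM at 0h to 666 to 1125 CPM at 12 hours (log2 fold change 1.58, SE 0.30, edgeR adjusted p = 0.021). The median log2 fold change of the list was 0.28 in WT and 0.63 in αD KO, beside -0.15 and -0.14 for all genes tested.

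Of 22 regulators of Il10 transcription, 1 rose and 3 fell in WT and 2 rose and 1 fell in αD KO. Map3k8, a kinase upstream of ERK, was higher in both, by 1.52 in WT (SE 0.37, edgeR adjusted p = 0.034) and 1.86 in αD KO (SE 0.28, edgeR adjusted p = 0.00881). Fos, a subunit of AP-1, was lower in both, from 2197 to 5092 CPM down to 301 to 534 CPM in WT, by -3.34 (SE 0.50, edgeR adjusted p = 0.00738), and by -2.02 in αD KO (SE 0.45, edgeR adjusted p = 0.0339). The list's median was -0.35 in WT and -0.04 in αD KO.

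Of 22 genes of purinergic and adenosine metabolism, 18 were tested, and 5 rose and 1 fell in each genotype. Cd38, an ectoenzyme that consumes NAD and can feed adenosine formation, was 0.537 to 5.58 CPM at 0h and 313 to 865 CPM at 12 hours in WT. It rose by 7.48 in WT (SE 0.95, edgeR adjusted p = 0.0042) and by 5.08 in αD KO (SE 0.87, edgeR adjusted p = 0.0139). Adora3, a further adenosine receptor, and Entpd3, an ectonucleotidase, rose in both genotypes as well. Panx1, the channel through which ATP leaves cells, was 3.64 to 9.67 CPM at 0h and 0.209 to 1.04 CPM at 12 hours in WT, lower by -3.15 (SE 0.79, edgeR adjusted p = 0.0375), and by -4.05 in αD KO (SE 0.67, edgeR adjusted p = 0.0122). The median of the list was 0.03 in WT and -0.29 in αD KO.

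Of 18 genes of the cAMP pathway, 0 were called in either genotype by edgeR, where DESeq2 called 3 in WT and 4 in αD KO, and 5 and 7 had an unadjusted p under 0.05. Their median was -0.26 in WT and -0.21 in αD KO. Of 18 checkpoint ligands and receptors, 15 were tested in WT and 13 in αD KO. Cd47, the signal that restrains phagocytes, rose by 2.25 in WT (SE 0.43, edgeR adjusted p = 0.0162) and by 2.53 in αD KO (SE 0.36, edgeR adjusted p = 0.00721). Cd86, a costimulatory ligand, fell in WT from 18.7 to 32.3 CPM down to 5.89 to 11.9 CPM (log2 fold change -1.57, SE 0.36, edgeR adjusted p = 0.0283). The medians were -0.64 in WT and -0.23 in αD KO.

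Of 16 genes of arginine and polyamine metabolism, 14 were tested and the same 4 rose in each genotype, Nos2, Asl, Azin1 and Gatm, with 0 lower. Nos2, the inducible nitric oxide synthase, which makes nitric oxide from arginine, was 0.394 to 3.53 CPM at 0h and 87.1 to 205 CPM at 12 hours in WT. It rose by 6.82 in WT (SE 0.87, edgeR adjusted p = 0.0042) and by 6.44 in αD KO (SE 0.90, edgeR adjusted p = 0.00693). The median of the list was 0.41 in WT and -0.06 in αD KO.

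Of 21 further genes used to describe suppressive myeloid cells, 6 rose and 4 fell in WT, and 7 rose and 4 fell in αD KO. Lcn2, an iron-trapping granule protein, had the largest rise of the genes called, from 302 to 559.9 CPM up to 15286 to 21228 CPM in WT (log2 fold change 5.29, SE 0.51, edgeR adjusted p = 0.00205). Ptgs2, the prostaglandin synthase COX-2, had the largest fall of the genes called, from 236 to 1178 CPM down to 9.24 to 34.5 CPM in WT (log2 fold change -5.39, SE 0.83, edgeR adjusted p = 0.00769). S100a8, S100a9, Hif1a, Olr1 and Ptges also rose and Il1b, Cd300ld and Ddit3 also fell in both genotypes. The medians were 0.85 in WT and 0.88 in αD KO. S100a8 and S100a9 are also neutrophil markers, and the lists do not tell a suppressive cell from another neutrophil.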

How the data were processed

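RNA sequencing of sorted neutrophils gave 24 count files for 16 samples in 8 groups, grouped by their labels. The authors amplified full-length cDNA, made libraries by tagmentation, trimmed reads with Trimmomatic 0.36, mapped them with STAR 2.5.2b (GRCm38/mm10, per the submitters' processing notes) and counted unique reads within exons. The deposited values are raw counts per gene, neither normalized nor filtered, and the strand of counting is not stated. Symbols came from GENCODE M21, and 48970 of 49315 genes had one.

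Counts were tested in R 4.3.3 with edgeR 4.0.16 (TMM, filterByExpr, quasi-likelihood F test, two-sided, only the groups compared), with p adjusted over all genes tested by the Benjamini-Hochberg method. DESeq2 1.42.0 was an alternative, and limma 3.58.1 is the base of edgeR. Tables and plots used pandas 2.3.3, scipy 1.17.1, numpy 2.4.6 and matplotlib 3.10.9 under Python 3.11.15. SE is that of the log2 fold change. The tests were checked on simulated counts. With 3 libraries against 3 an exact permutation test cannot give a p below 0.1. Reads carry no molecular identifiers, so limits from counts cover counting error only.

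The 6 genes, the 7 pathway lists and the 9 cell type lists were chosen with earlier results of these data known. The same choice held 2 further genes that are not reported here. Named besides the 6 were Itgad, the 5 genes most like Il10 and Adora2a, and per list the called gene with the largest rise and fall that had counts in every library. Csf1r, Chil3, Adgre1, Marco, Siglecf, Ly6c2, Ccr2, Ighm, Cd79a, Itgax, Csf3r and the other called list genes were named after their values were seen. Alternatives were RLE, DESeq2, no filter on low counts, all 8 groups fitted together, 1a and 1b summed, leaving out each library, a replicate block and the adjusted p alone. Libraries 1a and 2 alone, αD KO lung without the 3 libraries that go against their label, and correlations without WT lung were added after seeing the data.

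The labels state no pairing. The correlation of same-numbered libraries' deviations from their group means was above 0.1 for every number between the times in WT blood (0.457, 0.588 and 0.114) and in αD KO lung (0.173, 0.413 and 0.361), between the genotypes in blood at 0h (0.234, 0.748 and 0.266), and between the tissues of αD KO at 12 hours (0.148, 0.342 and 0.202). In the other 3 comparisons of 2 groups it was not.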

Additional observations from a re-analysis of the deposited data

How the results depend on the processing

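The count of the 6 genes called in WT blood, 3 as reported and with RLE, without the filter (where Adora2b took the place of Entpd1) and by the adjusted p alone, was 4 (with Adora2b) with DESeq2, with libraries 1a and 2 alone, with the replicate block and with the files of sample 1 summed, and 0 with all 8 groups in the fit. It was 0 to 4 when each library was left out. Il10, Adora2a and Adora2b were higher and Entpd1 lower at 12 hours in WT blood under all 13 alternatives. In αD KO blood the count of 0 became 2 with DESeq2, 3 without the filter and 1 with the replicate block (Adora2a, not called with the files of sample 1 summed), where the library numbers did not all pair, and was 0 to 1 when each library was left out. In αD KO lung it became 2 without the filter (Il10 and Adora2a). It became, in blood at 12 hours between the genotypes, 1 without the filter (Il10). For αD KO lung against blood at 12 hours it became 2 without the filter (Adora2a and Adora2b), 3 with libraries 1a and 2 alone, and was 0 to 3 when each library was left out. The replicate block changed no other count. DESeq2 gave no adjusted p for 4 of the 6 genes between the times in αD KO lung and for 3 between αD KO lung and blood at 0h, so no DESeq2 count is given there. Without the filter, dispersions are fitted over many genes with almost no counts, and the cause of its calls was not tested.

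Over all genes, edgeR and DESeq2 called 1975 and 3131 in WT blood, 1238 and 2496 in αD KO blood, 2 and 6 between the genotypes in blood at 0h, 0 and 16 at 12 hours, 0 and 1 in the interaction, 0 and 108 between αD KO lung and blood at 0h, and 8 and 1494 at 12 hours. For the lists, DESeq2 called 8 regulators of Il10 in each genotype in place of 4 and 3, 16 suppressive myeloid genes in WT in place of 10, 9 adenosine genes in αD KO in place of 6, 3 checkpoint genes in αD KO in place of 1 and 4 IL-10 signalling genes in αD KO in place of 1. Low counts limit Il10, Adora2a and Adora2b at 0h, where most libraries had under 20 counts of Il10.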
